A study of Arabidopsis thaliana with 42 samples.

Results

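Messenger RNA of 10 Arabidopsis thaliana genes of phosphate signalling and transport was followed through an RNA sequencing study of nitrate sensing. The genes were taken by locus from the count files, 10 of 37336 loci: the SPX genes SPX1 (AT5G20150), SPX2 (AT2G26660), SPX3 (AT2G45130) and SPX4 (AT5G15330), the transporters PHT1;1 (AT5G43350) and PHT1;4 (AT2G38940), the exporter PHO1 (AT3G23430), its regulator PHO2 (AT2G33770), the transcription factor PHR1 (AT4G28610) and the RNA IPS1 (AT3G09922). Of the 42 libraries, 18 came from whole seedlings, 7 days old, in 6 groups of 3, and 24 from mesophyll protoplasts, which are leaf cells without a wall, in 12 groups of 2. Seedlings were wild type (WT), the septuple mutant nlp2,4,5,6,7,8,9, in which 7 of the 9 NLP (NIN-like protein) transcription factors carry mutations, and chl1-5, which lacks normal NRT1.1, a transporter and sensor of nitrate. All of them grew in liquid medium with 2.5 mM ammonium succinate as nitrogen source, 0.5% sucrose and 10 mM phosphate buffer, so phosphate was plentiful in every group. They were then given KCl (K) or KNO3 (N) at 10 mM over 20 min, and K and N were read as these salts from the treatment protocol. WT and the septuple mutant had 10 seedlings to a well. The labels describe the growth of chl1-5 separately and do not say whether it was grown beside the WT, so genotype and culture cannot be told apart there. The protoplasts came from soil-grown Col-0 plants, 3 to 4 weeks old, expressed 1 of NLP1 to NLP9 or served as controls, and had 1 control group for NLP4 and NLP6, 1 for NLP7 and 1 for the remaining 6. No source used here gives the promoter that drove each NLP. The labels do not say whether replicates were separate cultures, so the p-values measure the spread between these libraries, which may be technical.

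Plants take up phosphate through PHT1 transporters in the plasma membrane, load it into the xylem with PHO1, and adjust both to supply. PHR1 is a transcription factor that switches on genes of the starvation response, and SPX proteins, which sense inositol pyrophosphates, hold PHR1 back when phosphate is plentiful. PHO2 is an enzyme that marks PHT1 transporters and PHO1 for breakdown. The microRNA miR399 cleaves the PHO2 message during starvation, and IPS1 is an RNA that mimics the target and binds miR399 without being cleaved. In rice, SPX4 also binds an NLP and is broken down with the help of a nitrate transporter, a known link between the nitrate and the phosphate pathway.

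The miR399 target sites of PHO2 and IPS1 are shown because miR399 acts on PHO2, and is bound by IPS1, through them; the other members were not searched. Mature miR399 sequences were read from the genome assembly TAIR10.1 at the places that RefSeq annotates, with the seed (bases 2 to 8) in capitals, 5′ to 3′. All 6 share 1 seed, and miR399b and miR399c-3p are identical.
ath-miR399a: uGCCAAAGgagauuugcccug
ath-miR399b: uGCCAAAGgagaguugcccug
ath-miR399d: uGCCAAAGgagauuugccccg
ath-miR399e: uGCCAAAGgagauuugccucg
ath-miR399f: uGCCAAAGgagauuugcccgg
The PHO2 message holds 5 stretches in its 5′ UTR on chromosome 2, minus strand, that pair with 19 of 21 bases of a miR399. IPS1 holds 1, on chromosome 3, plus strand, in a stretch that RefSeq annotates as coding, that pairs with 18 of 21 bases of miR399b and has 3 unpaired bases (cua) in the middle. Capitals mark the bases opposite the seed.
PHO2, chr2:14282106-14282126: uagggcaaaucuuCUUUGGCa
PHO2, chr2:14281973-14281993: uagggcauaucucCUUUGGCa
PHO2, chr2:14281884-14281904: uugggcaaaucucCUUUGGCa
PHO2, chr2:14281827-14281847: ucgagcaaaucucCUUUGGCa
PHO2, chr2:14281770-14281790: uagagcaaaucucCUUUGGCa
IPS1, chr3:3051224-3051247: uugggcaacuucuaucCUUUGGCa

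PHR1 is known to bind the motif GNATATNC. In windows from 250 bases before to 50 after the annotated start, with both strands searched, the motif was present once for PHT1;4, at base -7, once for SPX1, at base 23, and at -213 and -90 for SPX3. It was not found in the windows of the other 7 members, and 6.25% of the windows of all 27443 protein-coding genes hold it. GAATATTC, a site of the NIGT1 repressors that also fits the PHR1 motif, was in no member's window and in 1.01% of all windows. PHT1;4 holds most of the protoplast calls, so its upstream stretch is given here, from -250 to 1, chr2:16256907-16257157 of TAIR10.1, plus strand, with the motif in capitals. A match is a description of letters and was not tested for binding.
PHT1;4: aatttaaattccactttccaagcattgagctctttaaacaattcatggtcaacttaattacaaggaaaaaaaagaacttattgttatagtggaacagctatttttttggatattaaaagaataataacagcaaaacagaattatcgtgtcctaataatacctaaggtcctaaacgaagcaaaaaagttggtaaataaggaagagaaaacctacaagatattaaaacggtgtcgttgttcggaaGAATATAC

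Gene counts came to between 18316847 and 59711053 per seedling library and between 5637777 and 27731436 per protoplast library. Levels are given as CPM, the usual counts-per-million unit of RNA sequencing, here after TMM scaling. The marker sums and the NLP and NRT1.1 levels below are CPM without that scaling. Its factors ran from 0.83 to 1.2 in seedlings and from 0.91 to 1.15 in protoplasts. Also without it, a count of 0 allows up to 0.0502 to 0.164 CPM in seedlings and 0.108 to 0.532 CPM in protoplasts, counting error alone. In 4 protoplast libraries the NLP with the highest count was not the one on the label. The library labelled NLP4 replicate 1 was highest in NLP1, that labelled NLP5 replicate 2 in NLP8, that labelled NLP6 replicate 1 in NLP4 and that labelled NLP8 replicate 2 in NLP5. Each of the 4 held its labelled NLP at 14.9 to 434.44 CPM, and the matching libraries held theirs at 8600.58 CPM or more. The labels were kept, NLP4, NLP5, NLP6 and NLP8 stand below for the label, and the members' values are given with and without these libraries. Counts of the 2 control libraries that serve 6 of the NLPs were no further apart than sampling noise (chi-square per gene 1.01, p = 0.1, against 3.57 or more in every other pair) and were counted as 1 sample. That control has no spread of its own, so the spread behind its comparisons comes from the other groups of the fit. Mesophyll markers were at 689 to 2600 CPM summed over 6 genes in protoplasts, and root hair markers at 0 to 0.729 CPM over 4. In seedlings the same mesophyll genes summed to 29400 to 71700 CPM. The protoplast controls differed by set, at 1110 to 1120 CPM (NLP4 and NLP6), 689 to 742 CPM (NLP7) and 1960 to 2020 CPM (the remaining 6). In the septuple seedlings NLP8 had no count in the 6 libraries and NLP2 was at 0 to 3.83 CPM against 7.09 to 19.08 in WT, while NLP4 (20.16 to 35.76 CPM) and NLP6 (22.59 to 32.71 CPM) overlapped the WT values. A mutated gene can still be transcribed, so these counts do not check the genotype. NRT1.1 was at 49.72 to 90.87 CPM in chl1-5 against 488.7 to 916.52 CPM in WT.

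Levels of the 10 genes were first compared with one another, per kb of exon. In seedlings PHO2 was the highest, at a median of 55.3 CPM per kb (48.2 to 69.7 over 18 libraries), and PHO1 followed at 28.7 (21 to 37.9), with no overlap. PHR1 (15.8), PHT1;1 (13.4), SPX4 (9.4), PHT1;4 (8.69) and SPX2 (6.01 CPM per kb) came next, and each overlapped its neighbour in this order. SPX1, at a median of 0.958 CPM per kb, lay below SPX2 in every library. SPX3 was at a median of 0.0665 CPM per kb, with 8 of 18 libraries at 0. IPS1 had 5 counts in all, in 2 of 18 libraries, and is read as not detectable at this depth.

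The order was another in protoplasts. SPX1 was first, at a median of 93.7 CPM per kb (71.3 to 227 over 23 libraries), before PHR1 (54.8), PHT1;4 (51.0), SPX2 (34.1) and PHO2 (24.9 CPM per kb), each overlapping the next. SPX4 followed at 2.33 and SPX3 at 0.881 CPM per kb. PHO1, the xylem-loading exporter, was at 0.0782 CPM per kb and PHT1;1, known best from roots, at 0.0395. Here, too, IPS1 had 5 counts in all, in 2 of 24 libraries, both labelled NLP7. The tissues were normalised separately and no test compared them. Of the 10 genes, 9 passed the filter on low counts in seedlings (IPS1 did not) and 8 in protoplasts (IPS1 and PHT1;1 did not).

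**Figure D1:**
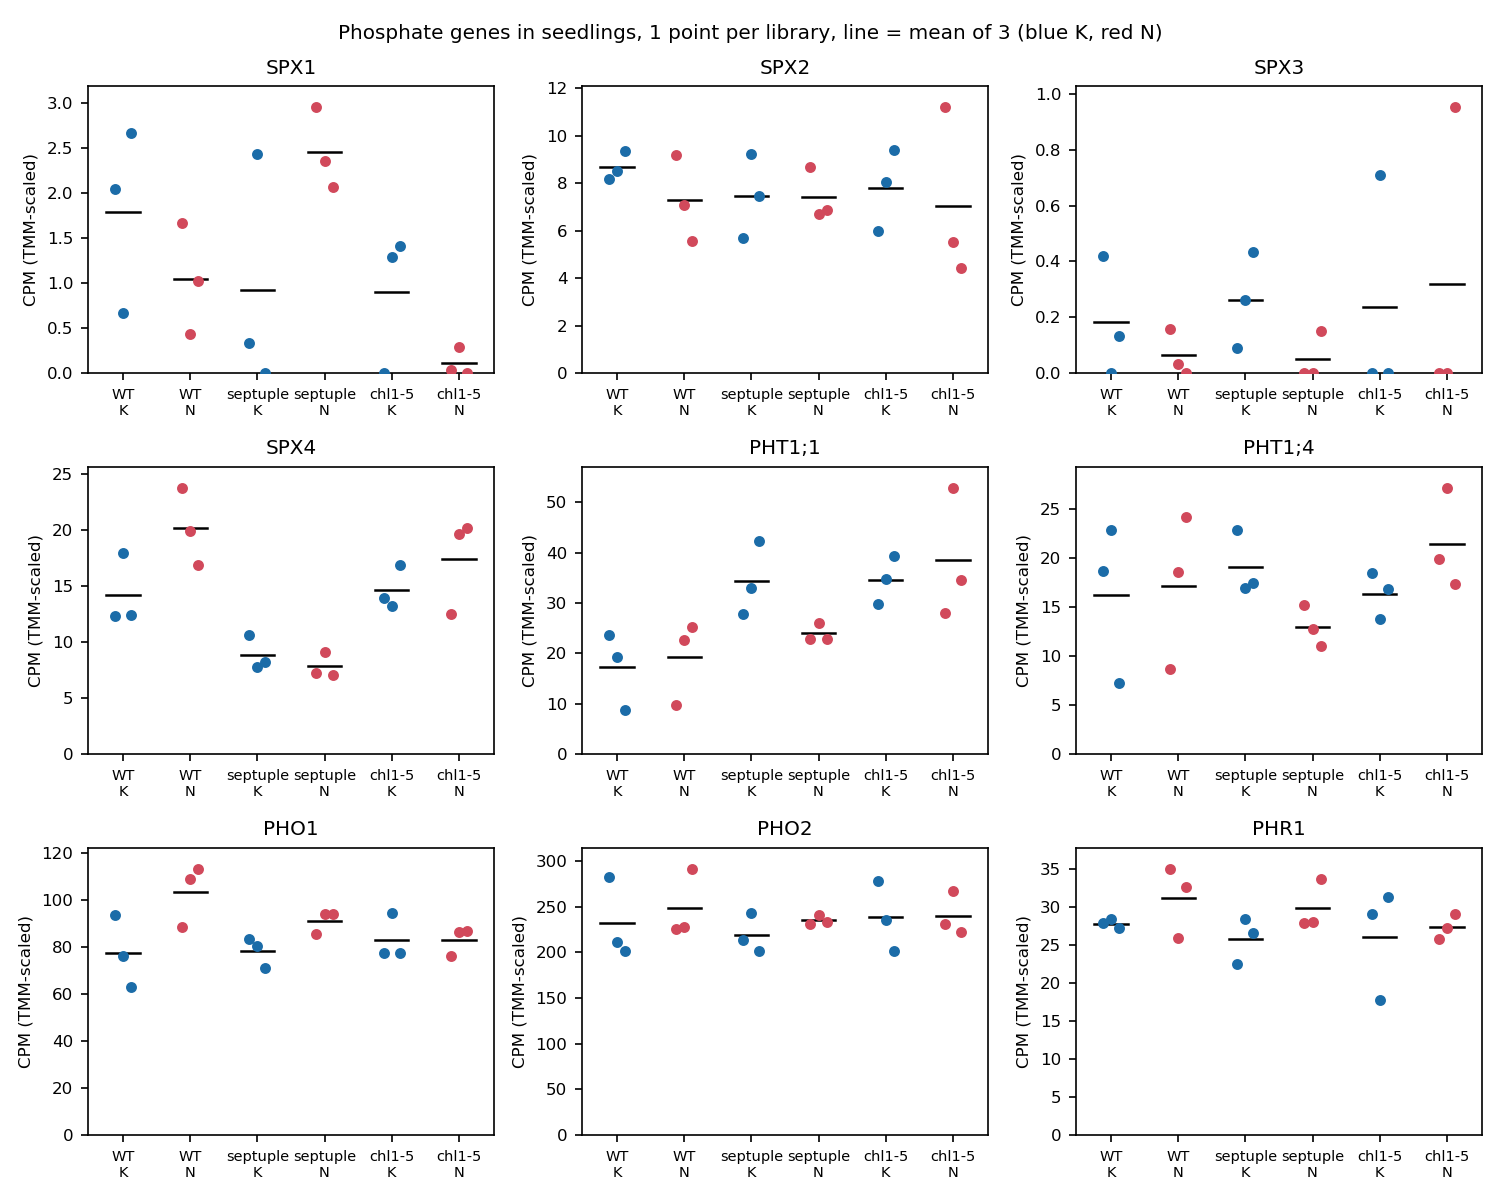
Level in CPM of 9 phosphate genes in each of the 18 seedling libraries, by genotype and salt (K blue, N red). Each point is a library and each line the mean of 3. SPX4 lies between 7.09 and 9.14 CPM in the septuple N libraries and between 16.91 and 23.71 in WT N, and PHO2 lies between 201 and 291 CPM throughout.

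The first question was whether nitrate moved these genes within 20 min. In WT no member was called at an adjusted p under 0.05, against 0.725% of the 21229 genes tested, which included NIR1 (nitrite reductase, log2 fold change 2.75 ± 0.23 SE, adjusted p = 3.76e-08). DESeq2 called no member either. Across the 9 tested members the log2 fold changes in WT had a median of 0.1, against -0.07 over all genes. PHO1 was the member with an unadjusted p under 0.05. It measured 93.44, 76.00 and 62.94 CPM in K and 88.47, 109.45 and 113.41 CPM in N, so the groups overlapped, and the log2 fold change was 0.42 ± 0.18 (adjusted p = 0.344). PHO2 measured 232 ± 44.0 CPM (SD, n = 3) in K and 248 ± 37.0 CPM in N, a log2 fold change of 0.10 ± 0.18. PHR1 gave 0.16 ± 0.21 and SPX4 0.51 ± 0.26 (adjusted p = 0.476).

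In the septuple mutant and in chl1-5, nitrate gave no called member either, by edgeR or by DESeq2. Over all genes 0% were called in the septuple mutant (at an unadjusted p under 0.05 there were 438 genes, and 4 were called by DESeq2) and 0.122% in chl1-5. No member of the septuple mutant had an unadjusted p under 0.05, and in chl1-5 SPX1 did. SPX1 measured 0.00, 1.29 and 1.41 CPM in chl1-5 K and 0.04, 0.29 and 0.00 CPM in N, which overlap and sit near the detection limit (adjusted p = 0.762). The difference between the nitrate responses of mutant and WT was also tested as an interaction. It gave 0 of 9 members for the septuple mutant, against 0.278% of all genes, and 0 of 9 for chl1-5, against 0.00942%. No member had an unadjusted p under 0.05 there, and DESeq2 called none. The SPX4 interaction for the septuple mutant was -0.69 ± 0.37 on the log2 scale (adjusted p = 0.514).

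SPX4 (chr5:4980374-4982231, plus strand) had less RNA in septuple seedlings than in WT seedlings after nitrate. It measured 23.71, 19.88 and 16.91 CPM in the WT N libraries and 7.19, 9.14 and 7.09 CPM in the septuple N libraries. Every septuple value lay below every WT value, and the mean was 2.59-fold lower (log2 fold change -1.37 ± 0.27, adjusted p = 0.0011). Among the 9 tested members it was the 1 called in this comparison, where 10.8% of all genes were called, so the count of members is near the background. In K, SPX4 measured 12.32, 17.94 and 12.37 CPM in WT and 10.63, 7.72 and 8.25 CPM in the mutant. These groups did not overlap either, and the log2 fold change of -0.68 ± 0.27 did not pass (adjusted p = 0.249). No member was called between septuple and WT in K, against 2.25% of all genes; 2 had an unadjusted p under 0.05, SPX4 and PHT1;1, and DESeq2 called none. In chl1-5, SPX4 was at 14.7 ± 1.96 CPM (SD, n = 3) in K and 17.4 ± 4.29 CPM in N, with log2 differences from WT of 0.05 ± 0.26 and -0.21 ± 0.26.

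Tissue markers moved beside the SPX4 difference. Mesophyll and photosynthesis markers, all 6 detected, summed to 29400 to 35000 CPM in septuple N and 57500 to 68600 CPM in WT N. Root hair markers, all 4 detected, summed to 88.5 to 112 CPM and 41.9 to 50.1 CPM, and vascular markers (4 genes) to 234 to 243 CPM and 180 to 221 CPM. Root endodermis markers (4 genes) went the other way, at 62.0 to 71.0 CPM in septuple N and 74.2 to 82.4 CPM in WT N. Epidermis markers (584 to 635 and 519 to 604 CPM) and guard cell markers (6.58 to 8.76 and 4.13 to 12.0 CPM) overlapped between these groups. In K the mesophyll sums overlapped, at 34600 to 42900 CPM in septuple and 39200 to 49500 CPM in WT. The mesophyll sums of WT in K thus lay below those in WT N. Vascular (253 to 304 and 138 to 198 CPM), epidermis (677 to 739 and 484 to 587 CPM) and root hair sums (75.1 to 99.7 and 50.9 to 67.7 CPM) were higher in septuple K than in WT K without overlap. Root endodermis (40.3 to 79.3 and 41.9 to 72.0 CPM) and guard cell sums (4.94 to 16.7 and 6.63 to 13.5 CPM) overlapped. The part of these markers in the SPX4 result was not tested, and in bulk RNA fewer cells of a type and less RNA per cell cannot be told apart. The WT N library of replicate 1 also had many alignments that were not unique (169.7% of its gene counts, where the median of seedlings was 29.8%).

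PHT1;1 (chr5:17399769-17402158, minus strand), a root uptake transporter, had higher values in both mutants that did not pass the test. It measured 23.64, 19.31 and 8.79 CPM in WT K, 27.91, 32.99 and 42.43 CPM in septuple K and 29.89, 34.69 and 39.41 CPM in chl1-5 K. Both mutant groups lay above the WT group without overlap. Root hair markers summed to 75.1 to 99.7 CPM in septuple K, 44.2 to 84.6 CPM in chl1-5 K and 50.9 to 67.7 CPM in WT K. Root endodermis markers overlapped, at 40.3 to 79.3 CPM in septuple K, 58.2 to 108 CPM in chl1-5 K and 41.9 to 72.0 CPM in WT K. Mesophyll markers summed to 34600 to 42900 CPM in septuple K, 60300 to 70600 CPM in chl1-5 K and 39200 to 49500 CPM in WT K. The part of these lists in the PHT1;1 values was not tested. The log2 fold change was 0.99 ± 0.32 for septuple (adjusted p = 0.122) and 1.01 ± 0.32 for chl1-5 (adjusted p = 0.059). In N it was 0.31 ± 0.32 for septuple (adjusted p = 0.625) and 1.00 ± 0.32 for chl1-5 (adjusted p = 0.229). In chl1-5 against WT 0 of 9 members were called in K, against 5.48% of all genes, and 0 of 9 in N, against 0.0612%. At an unadjusted p under 0.05 there were 1 and 2 members, and DESeq2 called PHT1;1 in K (adjusted p = 0.0274) and no member in N.

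The PHT1;1 call turned on the processing. With no filter on low counts it was called in septuple K (adjusted p = 0.00302), chl1-5 K (0.00225) and chl1-5 N (0.00953). Without WT K replicate 1, septuple K gave 1.30 (adjusted p = 0.0496). The coding sequence of PHT1;1 is 97.7% identical to that of PHT1;2, 89.5% to PHT1;3 and 69.2% to PHT1;4, so its counts are uncertain. Alignments that were not unique were kept apart from the gene counts, so reads that fit several copies may be missing from them.

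PHT1;4, a second uptake transporter, was at 7.24 to 27.1 CPM in seedlings. It measured 22.84, 16.85 and 17.42 CPM in septuple K and 15.19, 12.74 and 10.97 CPM in septuple N, with no overlap and no call (log2 fold change -0.56 ± 0.34, adjusted p = 1). PHO2, PHR1 and SPX2 had no call in any seedling comparison, and their nitrate responses in the 3 genotypes lay between 0.01 and 0.1, 0.07 and 0.21, and -0.26 and 0 on the log2 scale. SPX1 reached 2.95 CPM and SPX3 0.952 CPM at most, so a change in either was hardly detectable at this depth.

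Other genes of the pathway were counted from lists. In WT after nitrate, where 0.725% of all genes were called, 0 of 11 tested transport genes and 0 of 20 regulators were. Of 26 tested starvation genes 1 rose, PPCK1, which encodes a kinase of phosphoenolpyruvate carboxylase (11.2 to 32.4 CPM, log2 fold change 1.53 ± 0.33, adjusted p = 0.0179). The NIGT1 repressors, nitrate-induced factors known to act on both nitrate and phosphate genes, had 2 of 4 higher, AT1G68670 (34.0 to 95.4 CPM, 1.49 ± 0.25, adjusted p = 0.00146) and AT1G25550 (55.6 to 113 CPM, 1.02 ± 0.2, adjusted p = 0.0062). The medians of the lists were -0.16, -0.04, -0.18 and 2.73 on the log2 scale, against -0.07 over all genes. None of the 7 microRNA precursors had enough counts for a test in either tissue.

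In the septuple mutant in N, against WT in N, all 4 NIGT1 repressors were lower, where 10.8% of all genes were called. HRS1 was at 0.0736 CPM against 5.96 CPM, AT1G68670 at 15.4 against 95.4 CPM and AT1G25550 at 60.7 against 113 CPM. Of the 26 starvation genes 2 were lower, PPCK2 (3.11 against 20.3 CPM, -2.69 ± 0.53) and PPCK1 (6.48 against 32.4 CPM, -2.32 ± 0.33), both carboxylase kinases. The 2 that were higher were RNS1, a ribonuclease (11.2 against 3.63 CPM), and AT1G13750 (11.3 against 4.14 CPM). Transport genes split as well. AT1G63010 was higher (log2 fold change 0.72 ± 0.21) and PHT2;1, the chloroplast carrier, lower (-0.72 ± 0.18). Of 20 regulators 2 were higher, WRKY45 and LPR1, and 1 lower, WRKY6. The medians of these 4 lists were -4.37 for the repressors, 0.36 for starvation genes, 0.31 for transport and 0.11 for regulators, against 0.04 over all genes. HRS1 near 0 counts makes the first of these depend on the prior count.

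The other seedling contrasts held few calls on the lists. Septuple against WT in K had LPR1 higher (20.6 against 7.61 CPM), and GDPD2, of lipid breakdown (10.1 against 31.1 CPM), and AT1G68670 (13.9 against 34.0 CPM) lower. In chl1-5 K, PHT2;1 was higher than in WT (403 against 243 CPM) and WRKY45 lower (2.66 against 9.72 CPM). No listed gene outside the nitrate reference genes was called in chl1-5 N against WT, in either mutant's nitrate response or in either interaction.

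The second experiment asked what each NLP does when expressed in mesophyll protoplasts. PHT1;4 (chr2:16257157-16260253, plus strand) had lower values with every label, and 6 of 9 differences passed the test. The control for NLP1, 2, 3, 5, 8 and 9 measured 162.46 CPM. PHT1;4 was at 40.22 and 43.42 CPM with NLP9 and at 63.68 and 73.11 CPM with NLP2. The libraries labelled NLP5 measured 56.02 and 43.56 CPM, the second being the one highest in NLP8, and those labelled NLP8 measured 46.34 and 60.42 CPM, the second being the one highest in NLP5. All 8 libraries lay between 40.22 and 73.11 CPM, below that control.

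The falls of PHT1;4 were 3.88-fold with NLP9 (log2 fold change -1.96 ± 0.29, adjusted p = 0.000408) and 2.38-fold with NLP2 (-1.25 ± 0.29, adjusted p = 0.0115). By label they were 3.26-fold for NLP5 (-1.71 ± 0.29, adjusted p = 0.00189) and 3.04-fold for NLP8 (-1.60 ± 0.29, adjusted p = 0.0027), and without the library that goes against each label NLP8 had the lower value (-1.81) and NLP5 the higher (-1.55). It was at 108.90 and 125.73 CPM with NLP1 and at 127.32 and 114.20 CPM with NLP3, below the control value but without a call (-0.47 ± 0.3 and -0.43 ± 0.3, adjusted p = 0.437 and 0.476). These 6 comparisons share 1 control sample, so they are not independent of one another. Without NLP2 replicate 1 the NLP2 call was lost (adjusted p = 0.0731). Alignments that were not unique came to 162.3% and 162.4% of gene counts in the NLP2 libraries and to 33.6% and 33.4% in the 2 control libraries, and their part in the NLP2 calls was not tested.

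The control for NLP4 and NLP6 measured 165.86 and 148.92 CPM of PHT1;4. Libraries labelled NLP4 measured 101.19 and 58.96 CPM, and those labelled NLP6 57.24 and 101.98 CPM. Each label thus held a lower and a higher library, all 4 below both controls. The log2 fold change was -0.98 ± 0.25 for NLP4 (adjusted p = 0.0456) and -0.97 ± 0.25 for NLP6 (adjusted p = 0.0429). Leaving out either control library, NLP4 replicate 2 or NLP6 replicate 1 ended the call of the comparison concerned, with adjusted p up to 0.283 and 0.337. Replicate 1 of this control had 314.7% of alignments that were not unique, per gene counts, and 20.99% in no gene, where the medians of the protoplast libraries were 34.45% and 3.51%. Without it NLP4 gave -0.89 (adjusted p = 0.259) and NLP6 -0.90 (adjusted p = 0.248). The NLP7 pair was measured against 250.07 and 319.85 CPM in its own control and came to 161.18 and 172.28 CPM (-0.77 ± 0.25, adjusted p = 0.0599). Those groups did not overlap.

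Without the 4 libraries whose highest NLP was not the labelled one, PHT1;4 was called as lower with each of the 9 NLPs. Calls over all genes rose in that fit too, to 15.1% for NLP1, 31% for NLP2, 16.2% for NLP3, 24.2% for NLP4, 18.2% for NLP5, 8.29% for NLP6, 23.6% for NLP7, 24.8% for NLP8 and 33.1% for NLP9 of 19288 genes. The log2 fold changes were then -0.48 for NLP1, -1.28 for NLP2, -0.43 for NLP3, -1.43 for NLP4, -1.55 for NLP5, -0.63 for NLP6, -0.75 for NLP7, -1.81 for NLP8 and -1.97 for NLP9, with adjusted p between 1.67e-11 (NLP9) and 0.0227 (NLP3). In that fit NLP4, NLP5, NLP6 and NLP8 have 1 library each, which is assumed to vary like the other groups. NLP5 and NLP8 are then 1 library against 1 control sample, with no spread of their own. The summed mesophyll markers were at 1980 to 2370 CPM with NLP9 and 1960 to 2020 CPM in its control, and at 871 to 918 CPM with NLP7 and 689 to 742 CPM in its control. Their part in the result was not tested.

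**Figure D2:**
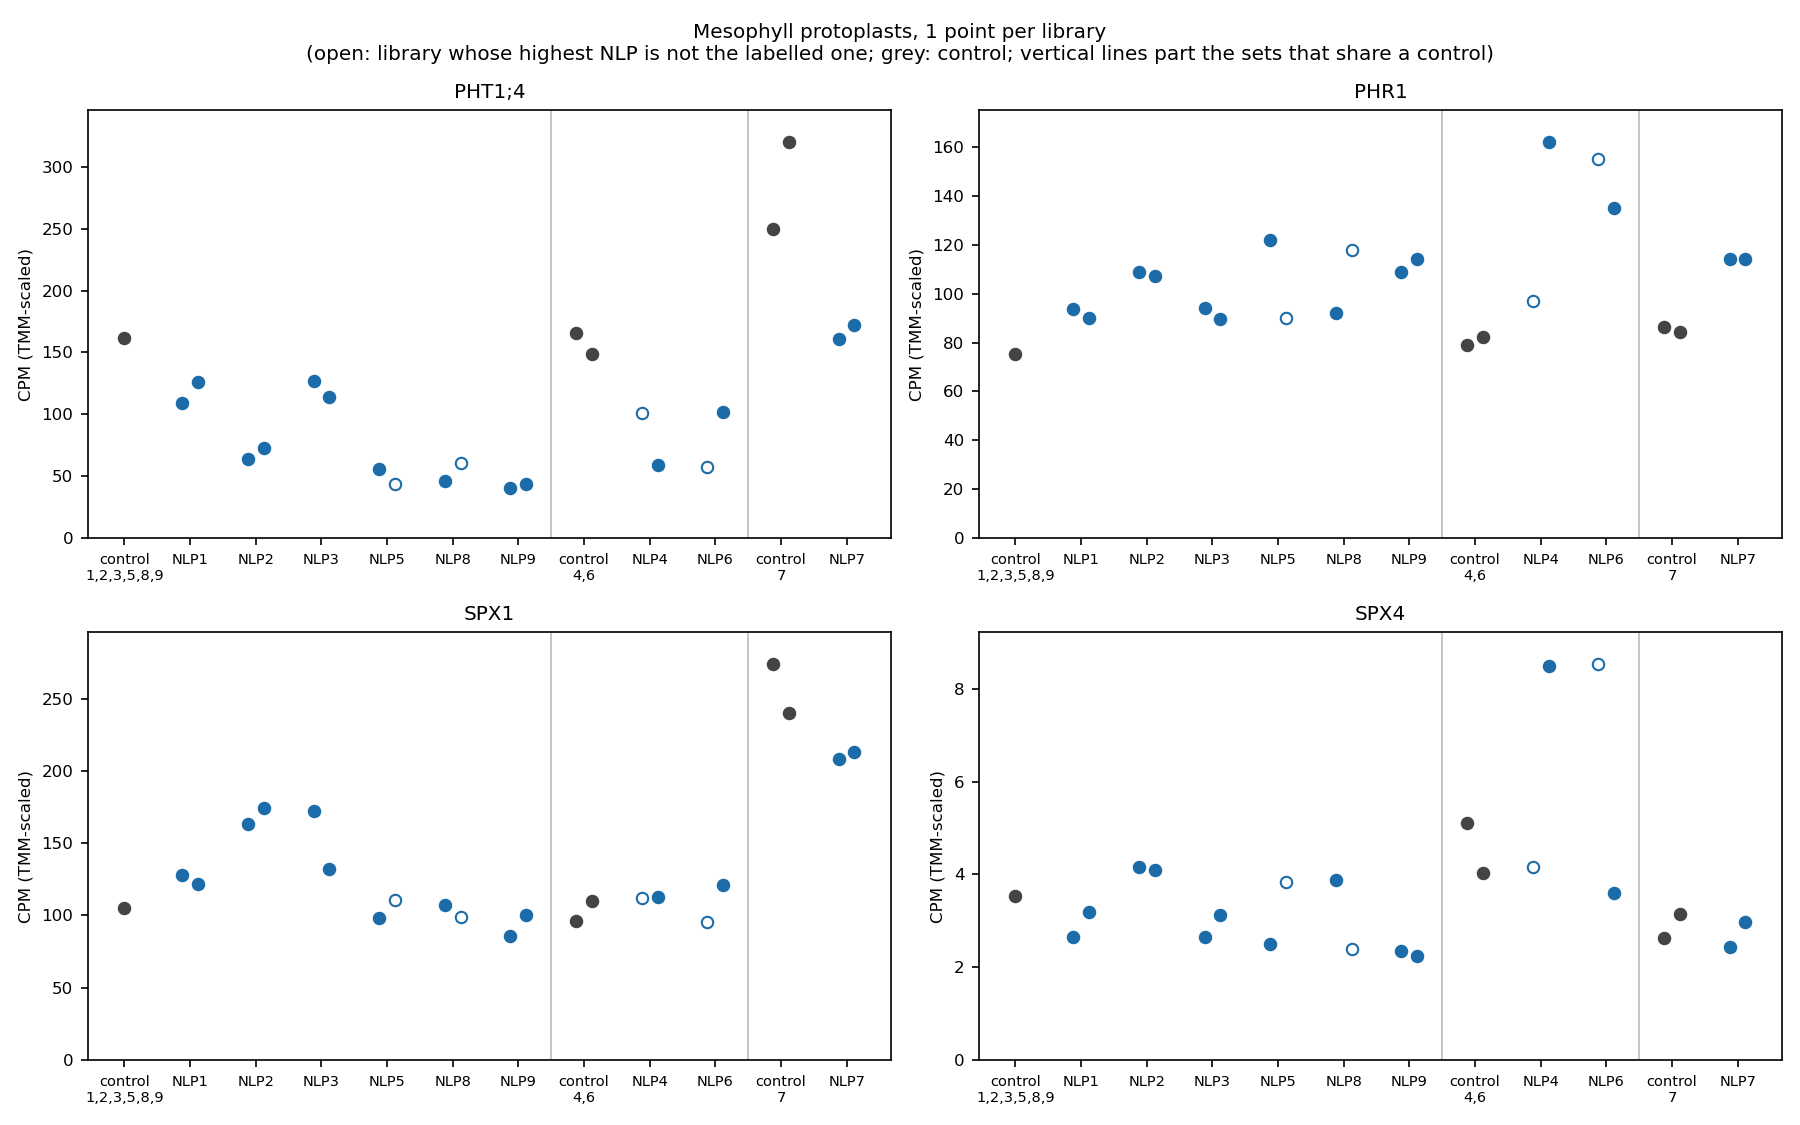
Level in CPM of PHT1;4, PHR1, SPX1 and SPX4 in each protoplast library, with controls in grey and open points for the 4 libraries whose highest NLP is not the labelled one. PHT1;4 is below the control of its set in every NLP library and PHR1 above it, and the NLP7 set (right of the last line) has the highest SPX1, from 208 to 274 CPM.

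PHR1, the regulator itself, was higher in the NLP libraries than in the controls, and 1 of 9 differences passed the test. The controls measured 78.96 and 82.28, 86.18 and 84.33, and 75.17 CPM. All 18 NLP libraries lay above the control of their set, from 89.60 CPM (NLP3 replicate 2) to 161.95 CPM (NLP4 replicate 2). The difference passed the test for 1 label, NLP6, with 154.83 and 135.20 CPM (1.80-fold, log2 fold change 0.85 ± 0.19, adjusted p = 0.0231). The first of these libraries, replicate 1, is the one highest in NLP4. NLP4, with 97.01 and 161.95 CPM, gave 0.69 ± 0.19 (adjusted p = 0.0529). The other 7 lay between 0.29 and 0.57.

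The PHR1 call for NLP6 was lost without NLP6 replicate 1 (0.74, adjusted p = 0.155), without either control library (adjusted p = 0.168 and 0.11) and with only the compared groups in the fit (adjusted p = 0.056). Without the 4 libraries, where 8.29% to 33.1% of all genes were called, PHR1 was called for 7 of 9 NLPs, with log2 fold changes of 0.5 for NLP2, 0.29 for NLP3, 0.99 for NLP4, 0.68 for NLP5, 0.75 for NLP6, 0.44 for NLP7 and 0.56 for NLP9. NLP1 (0.27, adjusted p = 0.0539) and NLP8 (0.29, adjusted p = 0.0505) did not pass there.

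Among the SPX genes 1 difference passed the test. SPX1 measured 163.15 and 173.52 CPM with NLP2 against 104.50 CPM in the control (1.61-fold, log2 fold change 0.69 ± 0.17, adjusted p = 0.0145), a call lost without NLP2 replicate 2 (0.64, adjusted p = 0.0636). With NLP3 it measured 171.57 and 131.69 CPM (0.54 ± 0.17, adjusted p = 0.101), which passed by DESeq2 (adjusted p = 0.0329), with only the compared groups (5.37e-06), with 24 libraries (0.0164), with these and the replicate block (0.0221) and without the 4 libraries (0.0072). Over all genes 538 were called for NLP3 by label and 1954 with 24 libraries, where the 2 control libraries count as separate samples. The level of SPX1 also differed between the sets of libraries. Both controls and both NLP7 libraries of the NLP7 set were at 207.62 to 274.19 CPM, while the other libraries lay between 85.93 and 173.52 CPM. SPX2 (66.30 to 80.08 CPM in that set, 37.19 to 54.51 CPM in the others) and SPX3 (2.79 to 4.72 CPM and 0.33 to 1.92 CPM) split in the same place. The labels give no date or batch, so set and handling cannot be told apart. Within the NLP7 set SPX1 was 207.62 and 213.01 CPM with NLP7 and 274.19 and 240.40 CPM in the control (-0.29 ± 0.13, adjusted p = 0.195).

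SPX4 was low in protoplasts, at 2.24 to 8.54 CPM. Its highest values were 8.50 CPM in NLP4 replicate 2 and 8.54 CPM in the library labelled NLP6 replicate 1, the libraries highest in NLP4, and the controls of that set measured 5.11 and 4.03 CPM. By label it gave 0.50 ± 0.39 for NLP4 and 0.36 ± 0.41 for NLP6, neither called. Without the 4 libraries NLP4 gave 0.87 (adjusted p = 0.0286), from 1 NLP4 library. SPX2 and SPX3 were called with no NLP, with log2 fold changes from -0.27 to 0.17 and from 0.03 to 1.3; SPX2 with NLP9 passed with 24 libraries (-0.28, adjusted p = 0.0452).

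PHO2, the target of miR399, measured 162.51 and 181.58 CPM with NLP2 and 108.29 CPM in its control. The difference of 0.67 ± 0.27 on the log2 scale did not pass (adjusted p = 0.11). It passed without the 4 libraries (0.64, adjusted p = 0.000287) and in 4 other alternatives. PHO2 with the remaining NLPs lay between -0.19 and 0.42 by label. NLP4 gave 0.12 by label and 0.54 without the 4 libraries (adjusted p = 0.00301), from 1 NLP4 library. PHO1 was at 0 to 1.65 CPM. Its highest values, 1.65 and 1.13 CPM, were those of NLP7, against 0.00 and 0.40 CPM in the control (2.47 ± 0.82, adjusted p = 0.0699), and these rest on at most 21 counts per library. That difference passed without the 4 libraries (2.44, adjusted p = 0.0234), with only the compared groups (adjusted p = 0.0142) and without control replicate 2 (adjusted p = 0.0367). PHT1;1 had 41 counts over all 24 libraries.

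Read against the background, the count of members called was 0 of 8 for NLP1 (1.58% of the 19311 genes tested were called), 2 for NLP2 (14.3%), 0 for NLP3 (2.79%), 1 for NLP4 (3.46%) and 1 for NLP5 (10.6%). It was 2 for NLP6 (4.05%), 0 for NLP7 (9.63%), 1 for NLP8 (10.9%) and 1 for NLP9 (19.3%). Where none was called, 0, 2 and 4 members had an unadjusted p under 0.05 for NLP1, NLP3 and NLP7, and DESeq2 called 0, 1 and 1.

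**Figure D3:**
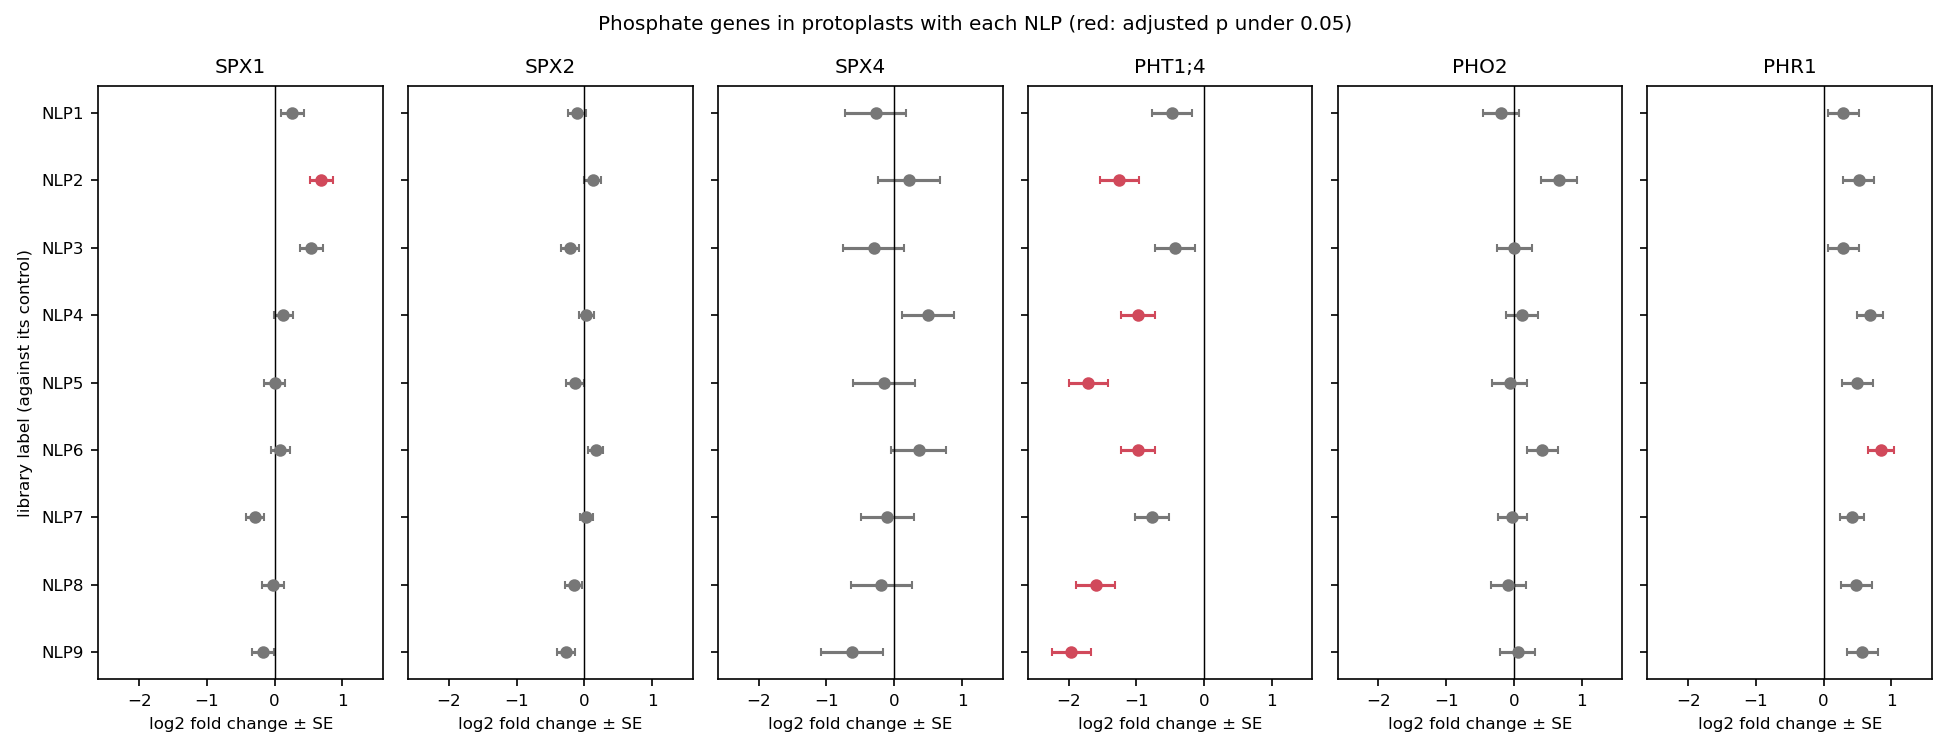
Log2 fold change ± SE of 6 phosphate genes in protoplasts, by the NLP on the label, against the control of the set, with an adjusted p under 0.05 in red. PHT1;4 lies left of 0 with all 9 labels, from -1.96 to -0.43, and PHR1 right of 0, from 0.29 to 0.85; labels within a set share their control.

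Other phosphate genes were counted from the lists here too. By label, none of the 12 tested transport genes was higher. With NLP9 2 were lower (16.7%, against 19.3% of all genes), and 1 was lower (8.33%) with NLP2, NLP5, NLP6, NLP7 and NLP8, where 14.3%, 10.6%, 4.05%, 9.63% and 10.9% of all genes were called. PHF1, which helps PHT1 transporters leave the endoplasmic reticulum, was lower with NLP5 (73.0 against 108 CPM, log2 fold change -0.56 ± 0.14), NLP6 (-0.45 ± 0.12), NLP7 (102 against 151 CPM, -0.57 ± 0.12) and NLP9 (-0.57 ± 0.14). AT1G63010 was lower with NLP8 (4.89 against 11 CPM) and NLP9 (5.04 against 11 CPM), and PHT3;3, a mitochondrial carrier, with NLP2 (5.25 against 8.94 CPM). The medians over the 12 genes lay between -0.28 and 0.09, where those over all genes lay between -0.02 and 0.03. In the fit without the 4 libraries NLP7 had 2 higher and 3 lower (41.7%, against 23.6% of all genes). NLP9 had 1 higher and 4 lower there (41.7%, against 33.1%), NLP2 had 4 lower (33.3%, against 31%), and NLP1 and NLP3 had none. Without the 4 libraries PHF1 was at -0.50 for NLP5 and -0.47 for NLP6, and AT1G63010 at -1.15 for NLP8, all called.

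Among 22 tested starvation genes RNS1 was called with 6 NLPs. It was lower with NLP2, NLP5, NLP6, NLP7, NLP8 and NLP9, from 0.87 lower on the log2 scale with NLP7 (591 against 1080 CPM, -0.87 ± 0.21) to 1.82 lower with NLP9 (166 against 585 CPM, -1.82 ± 0.24, adjusted p = 0.000199). PAP10, a secreted purple acid phosphatase, was lower with NLP2, NLP5 and NLP9 (11 against 22.7 CPM, -1.04 ± 0.29). NLP6 had PS2, a phosphatase of the starvation response, higher (8.05 against 3.50 CPM). PPCK1 was higher with NLP2 (11.3 against 5.81 CPM) and NLP9 (9.81 against 5.81 CPM). Counts on this list were 2 higher and 3 lower of 22 with NLP2 (22.7%, against 14.3% of all genes) and 2 and 5 with NLP9 (31.8%, against 19.3%). They were 0 and 3 with NLP5 (13.6%, against 10.6%) and 1 and 1 with NLP6 (9.09%, against 4.05%). With NLP7 (4.55%, against 9.63%) and NLP8 (4.55%, against 10.9%) they were 0 and 1, a share below that of all genes. NLP1, NLP3 and NLP4 had none by label. In the fit without the 4 libraries NLP1 had 1 higher and 3 lower (18.2%, against 15.1% of all genes). NLP3 had 1 higher and 4 lower there (22.7%, against 16.2%). Without the 4 libraries RNS1 was at -1.43 for NLP5, -0.99 for NLP6 and -1.99 for NLP8, PAP10 at -1.08 for NLP5 and PS2 at 1.19 for NLP6, all called.

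Of 18 tested regulators, NLP2 had 1 higher and 4 lower (27.8%, against 14.3% of all genes) and NLP9 2 higher and 4 lower (33.3%, against 19.3%). With NLP5 and NLP8 2 were lower (11.1%, against 10.6% and 10.9%). With NLP3, NLP4 and NLP6 1 was lower (5.56%, against 2.79%, 3.46% and 4.05%). NLP1 and NLP7 had none by label. In the fit without the 4 libraries NLP1 had 2 higher and 2 lower (22.2%, against 15.1% of all genes). NLP7 had 3 higher and 3 lower there (33.3%, against 23.6%). IPK1, an inositol phosphate kinase of the route to the SPX ligands, was higher with NLP2 (21.1 against 10.2 CPM, 1.05 ± 0.22, adjusted p = 0.00586). WRKY75, a factor of the starvation response, was higher with NLP9 (136 against 56.2 CPM, 1.27 ± 0.3). The 4 lower with NLP9 were WRKY45 (19.1 against 35.8 CPM), ZAT6 (70.7 against 130 CPM), WRKY6 (383 against 661 CPM) and STOP1 (166 against 285 CPM). WRKY6 was also lower with NLP2, NLP5 and NLP8, and WRKY45 and STOP1 with NLP2. LPR2, a ferroxidase of root growth under phosphate limitation, was lower with NLP2 (33.6 against 57.7 CPM), NLP3 (38.7 against 57.7 CPM), NLP4 (48.5 against 65.7 CPM), NLP5, NLP6 and NLP8. Without the 4 libraries LPR2 was at -0.45 for NLP4, -0.91 for NLP5, -0.53 for NLP6 and -0.75 for NLP8, all called. Of 4 tested NIGT1 repressors 1 was higher (25%) with NLP2, NLP6, NLP7, NLP8 and NLP9, and none was lower. Of all genes 14.3%, 4.05%, 9.63%, 10.9% and 19.3% were called there. The NIGT1 repressor AT3G25790 was higher with NLP2, NLP6, NLP7 and NLP8, with means between 6.28 CPM (NLP8) and 64.1 CPM (NLP2) and controls at 0 to 0.0596 CPM. A fold is not given, since the controls sit under the limit of detection. Without the 4 libraries the NLP6 and NLP8 differences kept their sign, from 1 NLP library each. Of the NLPs that kept 2 libraries in that fit, NLP2, NLP3, NLP7 and NLP9 also had repressors of this list called as lower. NLP4, NLP5, NLP6 and NLP8, with 1 library each, are left out of that statement.

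Genes whose levels followed the members most closely were named by Pearson correlation of log2 CPM over libraries, as a description. Libraries of a group share their treatment, so the points are not independent. In the 18 seedling libraries SPX4 followed AT1G03220 (r = 0.95), AT1G19020 (0.94) and NIA2, a nitrate reductase (0.94), out of 13505 genes. NIA2 measured 221 to 240 CPM in septuple N and 1330 to 1560 CPM in WT N. It was picked for its likeness to SPX4 over these libraries. It rose with nitrate in WT (1.19 ± 0.22, adjusted p = 0.00364), where SPX4 did not pass, and was lower in the septuple mutant in N (-2.64 ± 0.23, adjusted p = 1.27e-08).

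**Figure D4:**
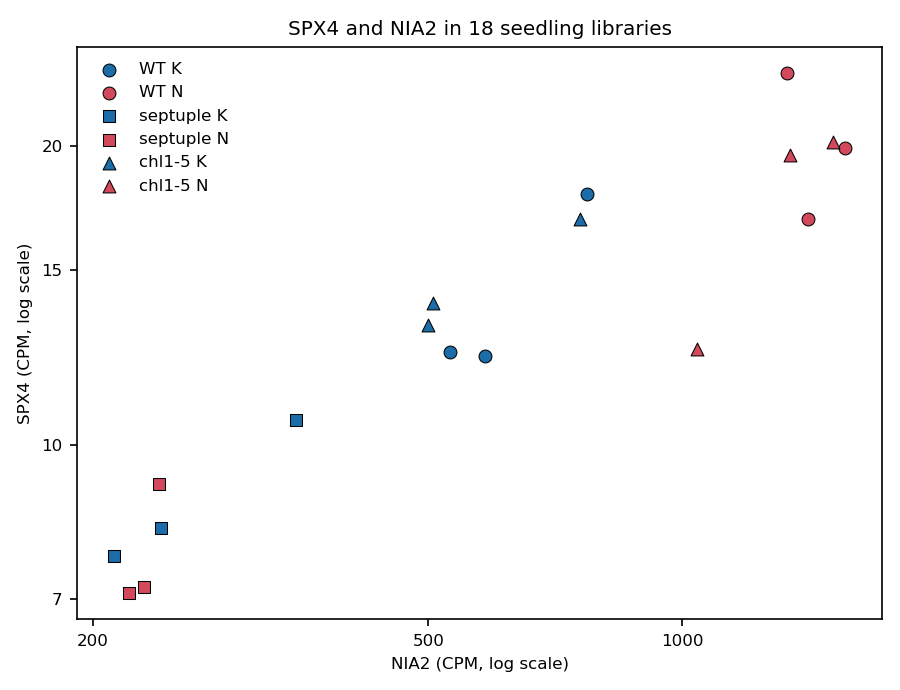
SPX4 against NIA2 in the 18 seedling libraries, both in CPM on log axes, with the shape for the genotype and the colour for the salt. The 6 septuple libraries (squares) hold the lowest values of both, with SPX4 at or under 10.63 CPM and NIA2 at or under 348 CPM.

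In the 23 protoplast libraries PHT1;4 followed LHT1, an amino acid transporter (r = 0.98), CAX7, a calcium exchanger (0.98), and AT2G41380 (0.97), of 13114 genes. LHT1 gave -1.47 ± 0.29 for NLP2, -1.66 ± 0.29 for NLP5, -1.64 ± 0.29 for NLP8 and -1.82 ± 0.29 for NLP9, and -1.42 for NLP5 and -2.02 for NLP8 without the 4 libraries. It was picked for its likeness to PHT1;4 over these same libraries, so values that go with those of PHT1;4 follow from the choice. PHR1 followed WR3, also named NRT3.1, a partner of high-affinity nitrate transporters (0.93), AT5G48970 (0.92) and AT5G40470 (0.92). WR3, picked in the same way, gave 2.42 ± 0.77, 2.53 ± 0.59 and 2.58 ± 0.59 in the libraries labelled NLP2, NLP4 and NLP6, and 3.16 for NLP4 and 1.5 for NLP6 without the 4 libraries. Its highest values, 1670 and 1690 CPM, were in the 2 libraries that also had the highest PHR1. SPX1 followed SRG3, also named GDPD1, a glycerophosphodiester phosphodiesterase (0.91), and SPX2 followed AT1G13750 (0.95). For both SPX genes the 4 libraries of the NLP7 set stand apart from the others. PHO2 followed AT5G15400 (0.92), LAP1 (0.91) and SPA2 (0.90). In seedlings the closest genes were TUA5, a tubulin, for PHT1;1 (0.89), AT1G11480 for PHT1;4 (0.86), STI for PHR1 (0.81), AT4G37190 for SPX2 (0.78), ZFWD1 for PHO1 (0.78) and SOL1 for PHO2 (0.73).

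The authors' own tables of fold changes were set beside these values. For PHT1;4 the authors' deposited table gives log2 fold changes of -1.43 for NLP4, -0.64 for NLP6, -1.47 for NLP5 and -1.84 for NLP8, where the labels gave -0.98, -0.97, -1.71 and -1.60 here and the fit without the 4 libraries -1.43, -0.63, -1.55 and -1.81. In the same authors' deposited tables the other 5 NLPs stand at -0.49 (NLP1), -1.24 (NLP2), -0.44 (NLP3), -0.75 (NLP7) and -1.94 (NLP9), and all 9 are below 0 with an adjusted p of 0.000386 or less. PHR1 is above 0 for all 9 NLPs in the authors' deposited tables, from 0.27 (NLP1) to 0.98 (NLP4), with an adjusted p of 0.00682 or less for 8 of them and of 0.113 for NLP6 (0.52). SPX1 with NLP2 and NLP3 (0.7 and 0.53, adjusted p = 2.72e-10 and 5.65e-06) and PHO2 with NLP2 (0.68, adjusted p = 1.58e-10) also pass there. SPX4 and PHO2 with NLP4 (0.9 and 0.54, adjusted p = 0.156 and 0.162) and PHO1 with NLP7 (2.62, adjusted p = 0.0759) do not pass there. For the nitrate responses of WT, the septuple mutant and chl1-5, the authors' deposited tables hold no member with an adjusted p under 0.05.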

How the data were processed

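The deposited count files hold whole-number read counts per gene, 1 column per library, for 37336 loci, and the authors made them from RNA sequencing reads. The submitters' processing notes name HTSeq 0.6.1, featureCounts, TopHat2 2.1.1 and FastQC 0.11.5, with TAIR10 as the build, and give no roles or order. Lines for reads in no gene (0.82% to 20.99% of gene counts) were left out. The authors' deposited comparison tables give log2 fold changes and adjusted p-values, and were copied for the members alone. Positions and sequences are from RefSeq on TAIR10.1, where 37051 of the loci were found.

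Counts were tested with edgeR 4.0.16 (R 4.3.3), with TMM scaling, filterByExpr, the quasi-likelihood F test and Benjamini-Hochberg adjustment over all genes tested, called at an adjusted p under 0.05. The seedling fit held 18 libraries in 6 groups and 21229 genes, and the protoplast fit 23 samples in 12 groups and 19311 genes. The scripts were tested on simulated data. DESeq2 1.42.0, other scaling, no filter, only the compared groups, replicate blocks, 24 libraries, leaving out 4 libraries and leaving out each library were the alternatives. Fits with 24 libraries count the 2 control libraries that serve 6 of the NLPs as separate samples, although these differed by no more than sampling noise. An adjusted p from edgeR or DESeq2 is from a model fitted across all genes. The members and lists were chosen with earlier results of these data known. All members were described. Of the 83 genes in 6 pathway lists, the named ones were called with a mean of at least 5 CPM. Usually at most about 3 were named per list and comparison, and not every such gene was named. The 3 genes most like each member by Pearson correlation were considered.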

Additional observations from a re-analysis of the deposited data

How the results depend on the processing

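Of 1773 values of the members under the alternatives, 15 lost and 54 gained a call, no called value changed sign, and 143 uncalled values did. The count of members called went from 0 to 1 for septuple against WT in K (no filter), chl1-5 against WT in K (DESeq2, no filter) and chl1-5 against WT in N (no filter). For NLP1 it went from 0 to 1 (only the groups compared, without the 4 libraries). For NLP2 it went from 2 to 4 with no filter, with only the groups compared, with the replicate block, with 24 libraries and without the 4 libraries. For NLP3 it went from 0 to 1 (DESeq2, replicate block, 24 libraries) or 3 (only the groups compared, without the 4 libraries). For NLP4 it went from 1 to 2 (DESeq2, no filter, replicate block, 24 libraries), to 0 (only the groups compared) or to 4 (without the 4 libraries). For NLP5 it went from 1 to 2 (no filter, 24 libraries, without the 4 libraries). For NLP6 it went from 2 to 0 (only the groups compared). For NLP7 it went from 0 to 1 (DESeq2, no filter) or 3 (only the groups compared, without the 4 libraries). For NLP8 it went from 1 to 2 (no filter) or 0 (only the groups compared). For NLP9 it went from 1 to 2 (no filter, only the groups compared, replicate block, without the 4 libraries) or 3 (24 libraries). The cause was not tested. Leaving out each library gave 0 to 1 for septuple against WT in K, 1 to 2 for NLP2, 0 to 3 for NLP4, 0 to 2 for NLP6 and 0 to 1 for NLP7, and in the other comparisons the count did not move. SPX4 in septuple against WT in N was called in 11 of 11 alternatives (log2 fold change -1.5 to -1.24, adjusted p 5.19e-06 to 0.0122). PHT1;4 was called in 11 of 11 with NLP5 and NLP9, in 10 with NLP2 and NLP8 and in 7 with NLP4 and NLP6, and PHR1 with NLP6 in 7.

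Counts over all genes moved further. In WT with nitrate 154 genes were called, 505 by DESeq2, 549 with no filter and 85 with only the groups compared. For septuple against WT in K 477 were called, 811 by DESeq2 and 281 with only the groups compared. For chl1-5 against WT in K 1163 were called, 2616 by DESeq2 and 41 with only the groups compared. For NLP4 669 were called, 1328 by DESeq2 and 4672 without the 4 libraries, for NLP8 2106, and 0 with only the groups compared. Leaving out 1 library moved the count for chl1-5 against WT in K from 152 (without WT K replicate 3) to 2537 (without chl1-5 K replicate 2), for septuple against WT in N from 1219 to 2189, for NLP4 from 65 (without control replicate 1) to 2642 (without NLP4 replicate 1) and for NLP6 from 56 (without control replicate 1) to 1892 (without NLP6 replicate 2), so the shares of all genes called move as much. Replicate numbers did not pair the seedling libraries, since same-numbered libraries had correlations of -0.26 to 0.16 in WT. The replicate block gave 214 calls for WT with nitrate and left its count of members called at 0. Depth limits SPX1, SPX3 and IPS1 in seedlings and PHO1, PHT1;1 and IPS1 in protoplasts.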

Other observations

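In 4 protoplast libraries the most abundant NLP was not the labelled one, and their phosphate genes are given here beside a library with that NLP on its label. The library labelled NLP6 replicate 1, highest in NLP4, and NLP4 replicate 2 measured 57.24 and 58.96 CPM of PHT1;4, 154.83 and 161.95 CPM of PHR1, 8.54 and 8.50 CPM of SPX4 and 81.10 and 83.93 CPM of PHO2. The library labelled NLP8 replicate 2, highest in NLP5, and NLP5 replicate 1 measured 60.42 and 56.02 CPM of PHT1;4 and 117.83 and 121.86 CPM of PHR1. The library labelled NLP5 replicate 2, highest in NLP8, and NLP8 replicate 1 measured 43.56 and 46.34 CPM of PHT1;4 and 90.15 and 92.14 CPM of PHR1. The library labelled NLP4 replicate 1, highest in NLP1, belongs to another set than the NLP1 libraries. It measured 101 CPM of PHT1;4, 97.0 CPM of PHR1 and 39.2 CPM of PHO2. The NLP1 libraries measured 109 to 126, 89.9 to 93.8 and 83.6 to 107 CPM, so PHO2 was lower in the NLP4 library. PHO2 also differed between the controls of these sets, at 56.5 to 58.1 CPM and at 108 CPM. No group was formed from these libraries and no test was made.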
